A study of Mus musculus with 4 samples.

Results

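This account covers the METTL3 binding sites around 6 developmental transcription factor genes of mouse embryonic stem cells: Foxd3, Sall1, Pax2, Foxc1, Glis3 and Zfp462. All METTL3 peaks were taken whose centre lay within 100 kb of the body of 1 of these genes on mm10. That gave 13 of the 634 deposited peaks, 7 of 353 in immunoprecipitation (IP) replicate 1 and 6 of 281 in IP replicate 2. The genes were chosen by the peak calls and heights of these same lists, so the presence, height and sharing of the peaks are a description and carry no test. The same holds for the fold over input, since the caller listed a peak only where IP exceeded input.

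The 4 chromatin immunoprecipitation sequencing (ChIP-seq) libraries were 2 METTL3 IPs and 2 inputs, which are sonicated chromatin taken without antibody. All 4 came from wild-type (WT) C57BL/6 embryonic stem cells kept in LIF with CHIR99021 and PD0325901, so no group differed in genotype or culture. Cells lacking METTL3 and an IP with an unrelated antibody were not analysed here, and the labels do not say whether the replicates were separate cultures. Replicate 1 held 22246555 IP tags and about 24800000 input tags, and replicate 2 held 21793898 and about 14900000, where a tag is an aligned read.

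METTL3 is the catalytic part of a methyltransferase complex that adds N6-methyladenosine (m6A) to nascent RNA, and the study mapped where it sits on DNA. Transcription factors of the kind described here turn whole programmes of genes on or off as the embryo forms its tissues. Some of them also act in pluripotent cells, where they hold back the genes of later lineages. FOXD3 and ZFP462 are known for such a part in embryonic stem cells, whereas FOXC1, PAX2 and GLIS3 are best known from mesoderm, kidney and pancreas.

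The peaks formed 7 sites, of which 6 overlapped between the replicates by at least 1 bp, with 1 such shared site for each gene. Zfp462 alone held its peak inside the gene body. The other 5 shared sites overlapped no annotated gene of any kind and lay 20.1 to 77.6 kb from the gene they were assigned to. Over all peaks, 180 of 353 (51.0%) and 141 of 281 (50.2%) overlapped no gene. All 5 stood on the lower-coordinate side, which is the 5′ (upstream) side of Foxd3, Foxc1 and Pax2 and the 3′ (downstream) side of Sall1 and Glis3, by the strand of their RefSeq start sites. At all 7 sites the gene named here was the nearest protein-coding gene, but only at Zfp462 was it the nearest gene of any kind. None of the 13 peaks overlapped a RefSeq promoter window, which runs from 250 bases before to 50 after a start site. Such overlaps were rare in the lists as a whole, at 6 of 353 peaks (1.70%) and 3 of 281 (1.07%).

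**Figure D1:**
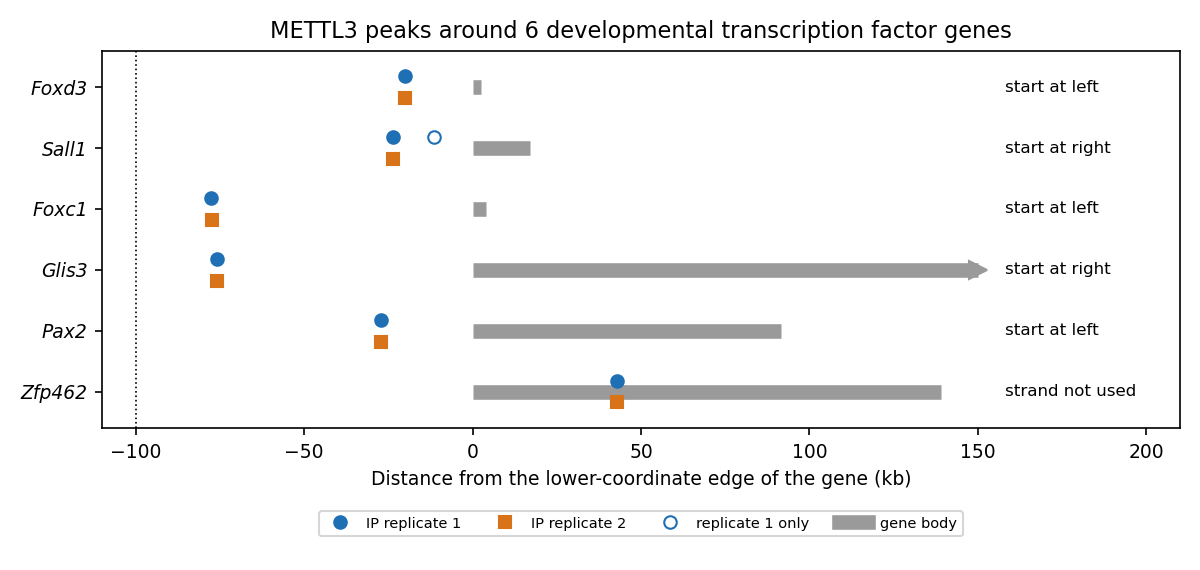
Position of each METTL3 peak in kb from the lower-coordinate edge of its gene, with the gene body in grey (Glis3, 421.4 kb long, is cut short with an arrowhead) and the side of the start site at the right. The peaks of the replicates lie on top of each other at 6 sites, of which only that of Zfp462 is inside the gene, and the open circle near Sall1 was listed in replicate 1 alone.

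Each peak's height is the caller's normalised count, the IP tags a library of 10000000 tags would hold, so a single tag was worth 0.450 in replicate 1 and 0.459 in replicate 2. Input is given on the same scale. Folds over input and over the surrounding 10 kb are the authors' values for each peak, and the 95% intervals of the fold are exact conditional binomial intervals that cover counting error only. For peaks without input tags the caller used 0.5 tags. Their fold is given here instead as a floor, computed as if each library held 3 input tags. That floor ignores counting error in the IP, which the lower end of the interval takes in.

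Foxd3 had the tallest site of the group. FOXD3 is a forkhead factor and repressor needed to keep the epiblast and embryonic stem cells, and it is later used by the neural crest. Its peak stood 20.1 kb upstream of the gene, which is 2.37 kb long (chromosome 4, 99636084 to 99636254 in replicate 1 and 99636115 to 99636283 in replicate 2, mm10). Replicate 1 gave a height of 36.9 and replicate 2 gave 34.0, with a mean of 35.5 ± 2.05 (SD, n = 2), against input of 0.806 and 2.69. Those heights rested on 83 and 74 IP tags and on 2 and 4 input tags.

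By height the Foxd3 peak was 4th of 353, tied with another peak, and 7th of 281, and 6th of the 195 shared sites by mean height. Fold over input was 46.3 in replicate 1 (95% interval 12.4 to 388.5) and 12.6 in replicate 2 (4.73 to 47.5), and these intervals overlapped. Over the surrounding 10 kb the peak was 38.2-fold and 37.0-fold higher, with 0.925 and 0.966 of its tags on the expected strand side of the centre, which is the caller's focus ratio. The median over all peaks was 9.03-fold and 10.4-fold for the local comparison, and 0.815 and 0.818 for the focus ratio. The pseudogene Gm12687 was slightly nearer to the peak than Foxd3, at 19.6 kb on the other side. The nearest other METTL3 peak of either list was about 25500 kb away.

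Zfp462 was the member with the peak inside the gene. ZFP462 is a zinc finger protein that works with histone H3K9 methyltransferases to keep lineage genes silent in embryonic stem cells. The peak lay 42.8 kb from the lower and 96.2 kb from the upper edge of this 139.1 kb gene (chromosome 4, 54987250 to 54987420 in replicate 1 and 54987233 to 54987401 in replicate 2). Exons and introns were not told apart here. Height was 9.44 and 9.64, or 9.54 ± 0.141 (SD, n = 2), with 21 IP tags in each replicate and no input tag in either. A count of 0 allows input of up to 1.21 and 2.02 on the same scale.

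By the floor of 3 input tags, the Zfp462 peak was at least 7.81-fold higher than input in replicate 1 (95% interval from 5.81) and at least 4.77-fold in replicate 2 (from 3.55). Over the local 10 kb it was 11.9-fold and 9.45-fold. It was 121st by height in replicate 1 and 110th in replicate 2, well below Foxd3 in both. Its tags were less sharply placed than those of a median peak in either list, with focus ratios of 0.676 and 0.765. The nearest other METTL3 peak was shared as well and stood 477.2 kb away, or 381.0 kb beyond the gene's upper edge, in the direction of Klf4.

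Sall1 had 2 METTL3 peaks on its 3′ side, 1 shared and 1 listed in replicate 1 alone. SALL1 is a zinc finger repressor that recruits histone deacetylase complexes, is present in embryonic stem cells and is required for kidney formation. The shared peak lay 23.6 kb beyond the 3′ end and 39.2 kb from the nearest start site (chromosome 8, 89003548 to 89003718 and 89003547 to 89003715). Heights of 16.6 in replicate 1 and 19.7 in replicate 2 averaged 18.2 ± 2.19 (SD, n = 2), against input of 0.806 and 2.02. The centres were 2 bp apart, the closest agreement among the 6 shared sites.

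Fold over input at the shared Sall1 peak was 20.6 (95% interval 5.32 to 176.7) from 37 IP and 2 input tags in replicate 1, and 9.77 (3.13 to 49.3) from 43 and 3 in replicate 2. It ranked 34th and 21st by height. The microRNA gene Mir8110 lay between this peak and Sall1, 21.1 kb from the peak, and no other protein-coding gene was nearer than Cyld at 251.7 kb. Local IP density around the peak was 1.40 and 1.57 times the genome average. Peaks of chromosome 8 had medians of 1.40 and 1.45, against 1.09 and 1.06 for peaks of all other chromosomes, and the part of this density in the result was not tested.

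The nearer Sall1 peak, 11.4 kb beyond the 3′ end (chromosome 8, 89015778 to 89015948), was much weaker over input. It reached 8.99 with 20 IP tags, but input there held 8 tags, 3.77 times the genome average, and none of the 6 shared sites exceeded 2 input tags in replicate 1. Its fold was 2.79 (95% interval 1.18 to 7.32), which ranked 351st of 353. Replicate 2 listed no peak there. Its list does not tell at which step of peak calling the site was lost.

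Foxc1 had its peak in the stretch that separates it from another forkhead gene, Foxf2. FOXC1 acts in paraxial mesoderm, the developing heart and the front of the eye, and FOXF2 acts in the mesenchyme of gut and palate. The peak stood 77.6 kb upstream of Foxc1 and 97.7 kb from the upper-coordinate edge of Foxf2 (chromosome 13, 31729006 to 31729176 and 31729046 to 31729214), so it lay within 100 kb of both. The nearest gene of any kind was the small nuclear RNA gene Gm25186, 8.54 kb away. Gmds, the gene of a GDP-mannose dehydratase, was 90.5 kb away, so 3 protein-coding genes lay within 100 kb, the most of any site here.

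At the Foxc1 site replicate 1 reached 21.1 and replicate 2 reached 15.1, for a mean of 18.1 ± 4.24 (SD, n = 2), the widest spread of the 6 sites. Replicate 1 had 47 IP and 2 input tags, 26.2-fold over input (95% interval 6.86 to 222.7). Replicate 2 had 33 IP tags but 0 in input, which is at least 7.50-fold higher by the same floor (interval from 5.77). The site ranked 18th and 34th by height and stood 19.6-fold and 15.1-fold over the local 10 kb, above the median peak in both lists.

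Pax2 had a lower peak, upstream of the gene. PAX2 is a paired-box factor of the intermediate mesoderm, from which the kidney forms, and of the optic stalk and the midbrain-hindbrain boundary. At 27.1 kb from Pax2, the peak (chromosome 19, 44719452 to 44719622 and 44719423 to 44719591) lay in a 45.3 kb gap between the long non-coding RNA genes Gm26644 and Gm35610. Height was 10.3 and 9.18, or 9.74 ± 0.792 (SD, n = 2), against input of 0.806 and 1.35. Those values correspond to 23 and 20 IP tags over 2 input tags in each replicate. The fold was 12.8 (95% interval 3.17 to 112.2) and 6.82 (1.66 to 60.2). The median fold over input of shared peaks was 10.0 in replicate 1, below the Pax2 fold, and 10.9 in replicate 2, above it.

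Local IP density at Pax2 differed between the replicates, at 1.60 and 0.999 times the genome average, and the peak was 7.57-fold and 10.9-fold over its surroundings. By height it was 98th of 353 and 124th of 281. That was above the median height of all peaks (8.09 and 8.72), as the Zfp462 peak was too.

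Glis3 had a site on its 3′ side, and this was the site whose input differed most between replicates. GLIS3 is a Krüppel-like zinc finger factor needed in pancreatic beta cells, thyroid and kidney. The peak lay 75.8 kb beyond the gene's 3′ end and, since the gene is 421.4 kb long, 497.1 kb from its start site (chromosome 19, 28182920 to 28183090 and 28182928 to 28183096). Heights were 15.7 and 12.4, or 14.1 ± 2.33 (SD, n = 2), which ranked 39th and 63rd. Replicate 1 had 36 IP tags but 0 in input, at least 13.4-fold higher by the floor (95% interval from 10.3). Replicate 2 had 27 IP tags and 5 input tags, 3.68-fold (1.40 to 12.2).

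The Glis3 input tags of replicate 2 amounted to 4.00 times the genome average, and the fold ranked 277th of 281 there against 3rd of 353 in replicate 1. Against its own surroundings the peak stood at similar values in both, 20.3-fold and 17.6-fold. The intervals of the fold over input still overlapped, between 10.3 and 12.2. The pseudogene Gm35781 was nearer, at 36.7 kb, and the next protein-coding gene was Rfx3, a ciliary gene regulator, at 168.3 kb.

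**Figure D2:**
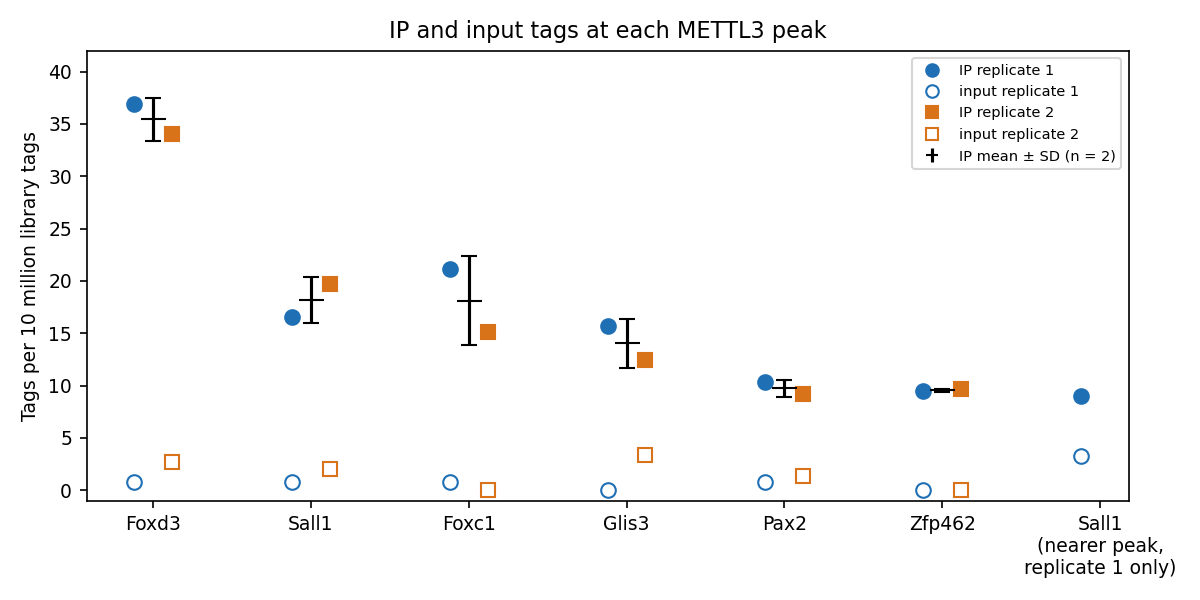
IP tags (filled) and input tags (open) per 10000000 library tags at each site, by replicate, with the IP mean and SD over 2 replicates in black. The Foxd3 peak stands at 36.9 and 34.0, the other shared peaks between 9.18 and 21.1, and input never exceeds 3.36 at any site.

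Set in order of mean height, Foxd3 (35.5) stood apart from the next site, since its lower replicate was above the higher replicate of each other site. Sall1 (18.2), Foxc1 (18.1) and Glis3 (14.1) followed, and neighbours among these overlapped in their replicate values. Pax2 (9.74) and Zfp462 (9.54) also overlapped each other and lay below both Glis3 values. Across the 6 sites the median of the mean heights was 16.1, against 10.0 over all 195 shared sites. Since heights were used to choose the genes, that difference carries no test.

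**Figure D3:**
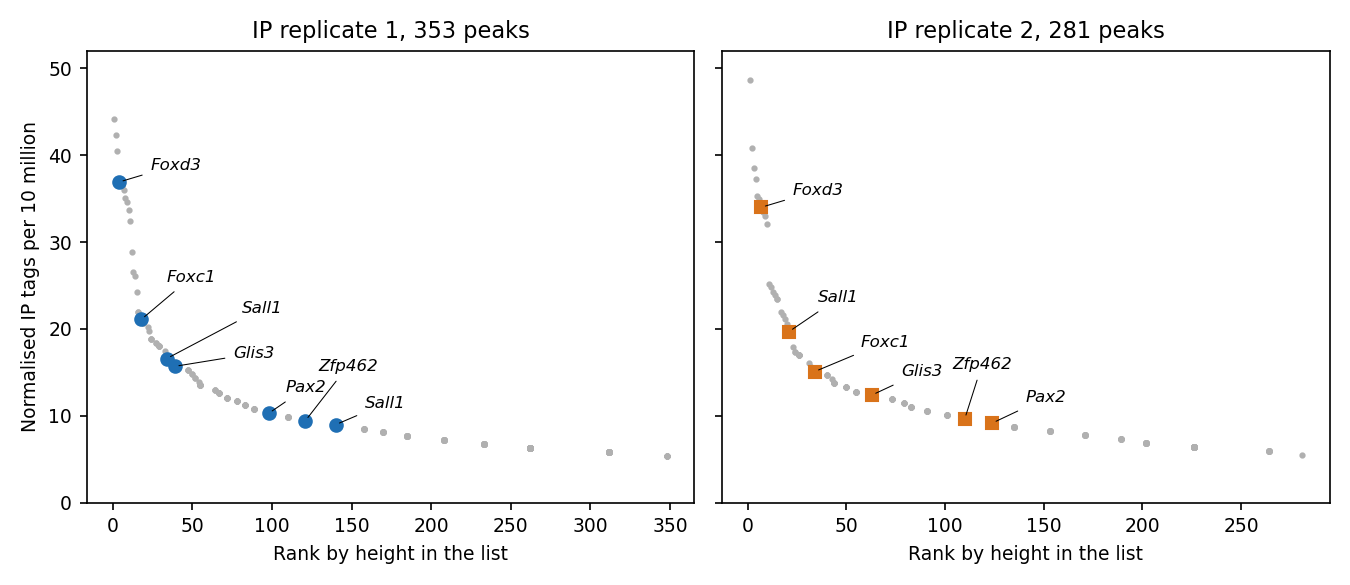
Height of every peak against its rank in the list of replicate 1 (left) and replicate 2 (right), with the peaks near the 6 genes labelled and all others in grey. Foxd3 is 4th and 7th, Sall1, Foxc1 and Glis3 lie on the bend of the curve, and Pax2, Zfp462 and the nearer Sall1 peak lie on the flat part.

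Differences between the replicates lay within the range of other shared peaks. Peak centres differed by 2 to 39 bp with a median of 24 bp, against a median of 27 bp and a range of 0 to 156 bp over all shared peaks. Replicate 1 was higher at Foxd3, Pax2, Foxc1 and Glis3, and replicate 2 at Sall1 and Zfp462. The log2 ratio of replicate 2 to replicate 1 ran from -0.48 at Foxc1 to 0.25 at Sall1, and its SD over all shared peaks was 0.36. Of the 6 sites, 5 lay within that SD of the mean, with Foxc1 the exception.

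**Figure D4:**
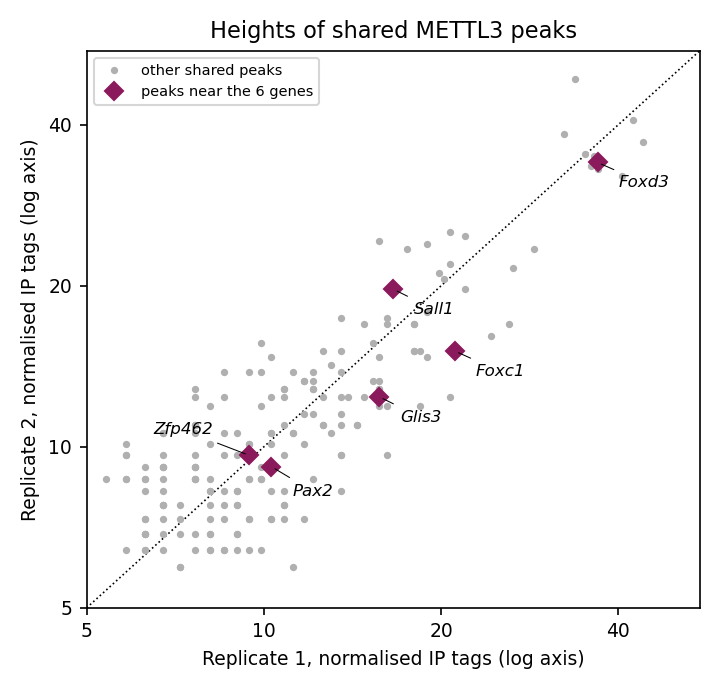
Height in replicate 2 against height in replicate 1 for the 195 shared peaks, both on log axes, with the dotted line marking equal heights. The 6 labelled sites lie within the cloud of other shared peaks, with Foxc1 (21.1 and 15.1) farthest below the line among them.

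Input at these sites was low in replicate 1 and more uneven in replicate 2. The shared sites held 0 to 2 input tags in replicate 1, up to 0.943 times the genome average, and the median of all shared peaks was 1.41 times. In replicate 2 they held 0 to 5 tags, up to 4.00 times the genome average at Glis3, with a median of 2.00 times against 0.801 over all shared peaks. The genome average itself is 2.12 tags per peak width in replicate 1 and 1.25 in replicate 2, so these values rest on a handful of tags. IP tags reached 11.0 to 43.6 times their own genome average in replicate 1 and 10.9 to 40.4 times in replicate 2.

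**Figure D5:**
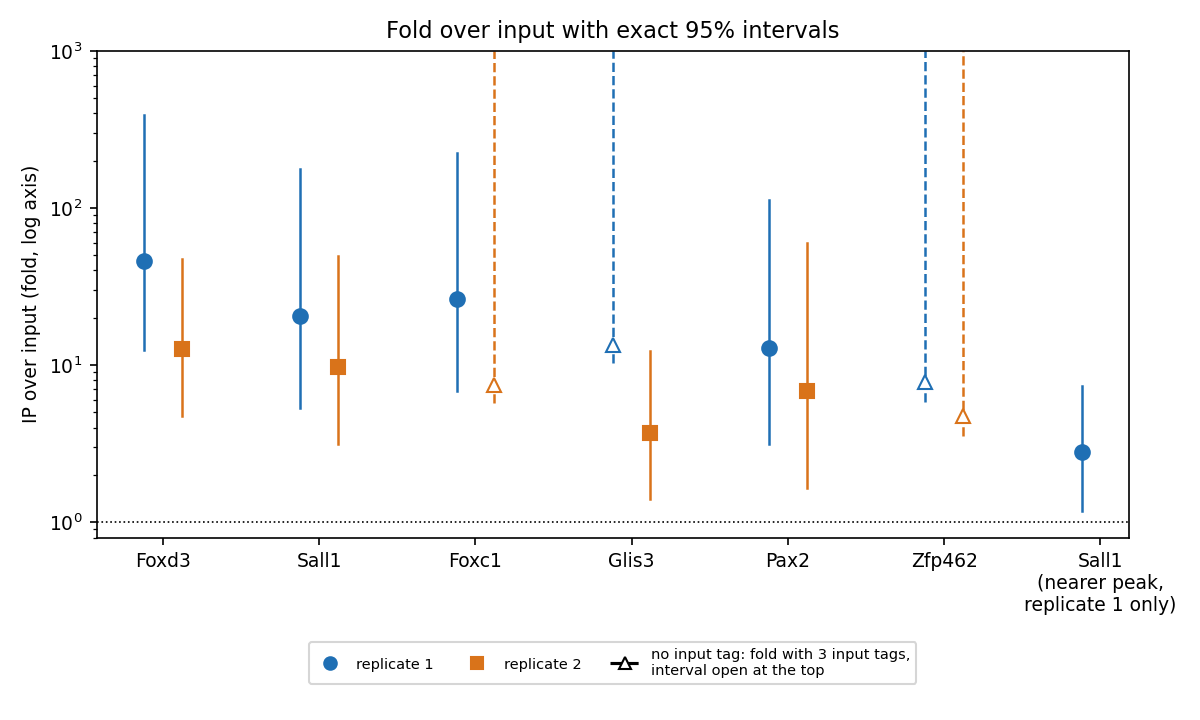
IP over input at each site on a log axis, with exact 95% intervals, where triangles with dashed lines mark peaks without an input tag and show the floor computed with 3 input tags. The lowest interval is that of the nearer Sall1 peak, from 1.18. All lie above 1, but the caller listed only peaks with an excess over input, so this is no test. At each shared site the intervals of the replicates overlap.

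The sites differed in how many genes and other peaks surrounded them. Within 100 kb of the peak centre there were 3 protein-coding genes at Foxc1, 2 at Foxd3 and 1 at each other site, against a median of 2 over all peaks in both lists. Of the 113 shared peaks outside protein-coding genes, 28 (24.8%) lay more than 75 kb from the nearest one, as those of Foxc1 and Glis3 did, and the median distance was 22.4 kb. The nearest other shared peak was 27570 kb away at Foxd3, 6404 kb at Foxc1 and 3353 kb at Pax2, beyond the median of 3218 kb over all shared sites. At Glis3 (825.2 kb), Sall1 (820.1 kb) and Zfp462 (477.2 kb) it was nearer than that median. Just outside the 100 kb limit there was nothing near these genes. The next peaks began 327.9 kb from Glis3, 381.0 kb from Zfp462 and 422.6 kb from Sall1, 3380 kb from Pax2, 6323 kb from Foxc1 and 25470 kb from Foxd3. Within 20 kb, only Zfp462 kept a shared peak, with Foxd3 just beyond that distance.

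Related genes were counted in the same way. Of 21887 protein-coding genes, 4.16% had a peak within 100 kb in the list of replicate 1, 3.24% in that of replicate 2 and 2.25% a shared one. All 6 members had a shared peak by their choice, and nothing is read from that. Among the 108 other genes of 6 lists (forkhead, Pax, Sall, GLI-type, germ-layer and co-repressor genes), 3 had a shared peak within 100 kb (2.78%), a share near that background. These were Foxf2, Foxn3 and Sall2. Foxf2 was counted only through the Foxc1 site, which came with the choice of members.

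Within the members' own families the counts were small. Of 42 other forkhead genes, Foxf2 (through the Foxc1 site alone) and Foxn3 had a shared peak (4.76%, against 2.25% of all protein-coding genes). Foxn3, a checkpoint-linked forkhead repressor, held its peak inside the gene, with heights of 10.8 and 7.34 over 5 and 0 input tags. Of the 3 other Sall genes, Sall2 had a shared peak 13.5 kb away with heights of 13.5 and 11.5 over 7 and 1 input tags. However, that peak lay inside Mettl3 itself, which neighbours Sall2. Replicate 2 alone listed a further peak inside Mettl3, 11.2 kb from Sall2, of 6.42 with 14 IP and 0 input tags. None of 8 other Pax genes and none of 10 other GLI, GLIS and ZIC genes had a shared peak. These counts of 0 allow shares of up to 37.5% and 30%, far above the 2.25% of all protein-coding genes.

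Regulators that mark the germ layers lacked METTL3 peaks at this distance. For 30 of them, among them T, Eomes, Gata6, Sox17, Cdx2 and Otx2, no peak of either list lay within 100 kb. A count of 0 of 30 allows a share of up to 10%. The backgrounds of 4.16% (replicate 1), 3.24% (replicate 2) and 2.25% (shared peaks) all lie below that. The count of 0 therefore cannot tell a share equal to background from a lower one. Of 17 co-repressor partners of SALL1 and ZFP462, such as the NuRD subunits Chd4 and Mbd3 and the methyltransferases Ehmt1 and Ehmt2, none had a shared peak within 100 kb, and 0 of 17 allows up to 17.6%.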

How the data were processed

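METTL3 was immunoprecipitated from formaldehyde-fixed (1%) embryonic stem cell chromatin sheared to fragments of 200 to 500 bp, per the labels' protocols. Trimmomatic 0.38, Bowtie 1.2.2, CASAVA, HOMER and mm10 are listed without settings in the submitters' processing notes. Per the file headers, HOMER findPeaks (factor style) called peaks in each IP against the input of the same number, without pooling. The false discovery rate was 0.001, with a tag threshold of 14 at that rate. The IP tag counts of listed peaks still went down to 12. A p-value of 0.0001 was required over input and over the local 10 kb, with a required fold of 1 and at most 1 tag per position.

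Heights are the deposited signal in tags per 10000000. Of the authors' total tags, replicate 1 has a count and replicate 2 a signal scaled to input. The focus ratio is a deposited fraction, and the findPeaks score, the fold over input (a ratio) and the p-values are the authors' own values per peak.

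Scaled columns were turned back into whole tags (largest distance from a whole number 0.105 for IP and 0.0435 for input). Genes and start sites came from RefSeq on GRCm38.p6, the same assembly as mm10, with positions 1-based. Of the 6 genes, 5 matched the table of start sites; Zfp462 did not. Genome sequence of the peaks was not used here. Distances run from the peak centre to the gene body. Functions were tested on simulated data, using Python 3.11.15 and SciPy 1.17.1. Text names the 6 genes, the genes at or nearest to their peaks, and listed genes with a peak within 100 kb. Members and lists were chosen with earlier results of these data known.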

Additional observations from a re-analysis of the deposited data

How the results depend on the processing

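With only 12 to 106 IP tags and a few input tags per peak, depth limits every fold. The peaks numbered 13, shared sites reached 6 members, and 8 listed genes had a shared peak. Those 8 were Foxf2, Foxn3, Sall2 and the members other than Zfp462, which is in none of the lists. A 20 kb window gave 3 peaks, 1 member and 2 listed genes (Foxn3 and Sall2, not members). A 50 kb window gave 9 peaks, 4 members and 5 listed genes. Requiring an 8-fold excess in each list by the caller's fold left 10 peaks, 4 members and 4 listed genes. Foxc1 in replicate 2 and Zfp462 in both replicates had an empty input and passed with the caller's 0.5 tags. By the cautious floor of 3 input tags they lay below 8, at 7.50 for Foxc1 and at 7.81 and 4.77 for Zfp462. An overlap of at least 90% of both peaks left 2 members (Sall1 and Glis3) and 4 listed genes. These settings keep fewer peaks or demand more of them by construction. Leaving out a replicate gave 6 to 7 peaks. With at least 3 input tags per library, the caller's folds fell at every shared site in replicate 1. They went from 46.3 to 30.85 at Foxd3, from 20.6 to 13.75 at Sall1 and from 12.8 to 8.55 at Pax2. At Foxc1 they went from 26.2 to 17.5, at Glis3 from 80.3 to 13.4 and at Zfp462 from 46.8 to 7.81. In replicate 2 they went from 6.82 to 4.55 at Pax2, from 45.0 to 7.50 at Foxc1 and from 28.6 to 4.77 at Zfp462. Foxd3, Sall1 and Glis3 kept their folds in replicate 2. A 200 kb window, the upper part of each list by score and distance from the peak edge kept the number of members or peaks at 6 and 13. No paired analysis was possible because these results come from no test, and each fold already sets an IP against the input of its own number.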

Other observations

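The peaks closest in height to the Foxd3 site in replicate 1, among shared peaks, were at genes of another kind. Epb41l4a, which encodes a FERM-domain protein, held a peak inside the gene (chromosome 18, 33836030 to 33836200) of 36.9 in replicate 1 and 33.0 in replicate 2. A peak 5.77 kb from Tnfrsf19, a receptor gene of the tumour necrosis factor family, stood at 36.4 and 34.9 (chromosome 14, 60957983 to 60958153).

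Some relatives and partners of the 6 factors had a peak in 1 list alone. Foxp1 held a peak inside the gene in replicate 2, of 7.80 normalised IP tags (17 IP and 2 input tags). Near Foxk2, 78.1 kb away and inside Ogfod3, replicate 2 listed a peak of 5.51. Gli1, a target and effector of Hedgehog signalling, had a peak of 5.84 in replicate 1, 54.4 kb away and inside Dctn2. Rbbp7, a histone-binding subunit of NuRD, had the tallest of these, 10.3 in replicate 1, 53.2 kb away (chromosome X, 162832172 to 162832342). It rested on 23 IP tags against 0 in input, at least 8.55-fold higher by the floor of 3 tags (95% interval from 6.41).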
